A study of Monodelphis domestica and Mus musculus with 2 samples.

Results

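The Sst interneurons of the mouse were 144 segmented cells of the primary visual cortex (V1) that carried the deposited subclass label Sst and the class label GABAergic. They were chosen by these labels alone, from the 9127 V1 cells that passed the authors' filter, out of 120239 segmented cells on the mouse section and 200608 in the whole series. The section was 10 µm thick, came from 1 male wild-type C57BL/6J mouse of about postnatal day 40, and was permeabilized for 12 min before Stereo-seq, an assay that captures polyadenylated RNA in place on a patterned chip and assigns each unique molecular identifier (UMI) to a position. It held 4 regions of V1, which the authors drew to span layers 2/3 to 6, without layer 1, with 55, 27, 32 and 30 Sst cells in regions 1 to 4. The series also holds a section of 1 opossum, whose cells were not compared here. The tissue block held several coronal slices of the animal, and which region came from which slice is not given in the sources used here. With 1 animal there is no replicate and no test, and every interval below is a 95% interval that covers counting error only.

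Sst interneurons are inhibitory neurons that use GABA and release the neuropeptide somatostatin, the product of Sst. Most arise in the medial ganglionic eminence, as Pvalb interneurons do, and many contact the dendrites of pyramidal neurons, while Pvalb interneurons mostly contact cell bodies and the start of the axon. In visual cortex Sst cells include Martinotti cells, whose axons rise to layer 1, and cells that target layer 4, and they are known for strongly facilitating excitatory input, which depends in part on the postsynaptic protein encoded by Elfn1.

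The 144 cells held 214123 UMIs, with a median of 1472.5 per cell (325 to 2943) and a median of 921.5 detected genes. Their depth was close to that of the 150 Pvalb cells of GABAergic class (median 1523 UMIs) and the 6245 glutamatergic cells (median 1325 UMIs). The Sst label made up 29.0% of the 497 GABAergic cells (interval 25.02% to 33.2%), beside 30.2% for Pvalb. By region the Sst share of GABAergic cells was 27.4%, 34.6%, 30.5% and 26.5%, with overlapping intervals. The paper did not measure absolute or relative densities of cells by Stereo-seq, because transcripts may drop out. These shares therefore describe labeled cells and not the composition of V1. The 497 cells include 68 of GABAergic class that got no subclass label. Lamp5 (31 cells), Vip (25), Stac (5) and Frem1 (1) were the other interneuron labels. The remaining cells of GABAergic class carried a subclass label other than these. They stayed in the 497 and among the 203 other GABAergic cells. Among cells with an interneuron subclass label alone, the Sst and Pvalb shares would be higher. The labels came from the neighbors of each cell in an snRNA-seq atlas, in rounds that asked for less and less agreement among the neighbors, and 27, 83 and 34 of the Sst cells got their subclass in rounds 1, 2 and 3. A further 24 cells with the Sst subclass label had glutamatergic class and 1 had non-neuronal class, and these were not counted as members. The 24 stayed among the 6245 glutamatergic cells, as did 21 cells of that class with the Pvalb subclass label.

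Sst, Grin3a and Elfn1 were highest in the cells with the label, while Gad1 was not. Levels are given as UMIs per 10000 UMIs of a group of cells, on summed counts. Because cells were labeled by their expression, these levels describe the label and do not test it. Sst had a level of 12.8 in Sst cells (interval 11.3 to 14.4, 274 UMIs), beside 3.71 in Pvalb cells, 5.09 in other GABAergic cells, 3.58 in glutamatergic cells and 3.87 in non-neuronal cells. By region, the level of Sst in Sst cells was 12.3, 15.1, 11.0 and 13.7, and in Pvalb cells it was 3.08, 3.25, 3.71 and 5.54. No region of the Sst cells overlapped with any region of the Pvalb or glutamatergic cells. Gad1, which encodes a GABA-synthesizing enzyme, was at 4.67 in Sst cells, 5.02 in Pvalb cells and 1.88 in glutamatergic cells.

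Grin3a, an NMDA receptor subunit gene, had a level of 1.59 in Sst cells (34 UMIs), 0.337 in Pvalb cells and 0.129 in glutamatergic cells. Its level in Sst cells by region was 1.29, 2.70, 2.17 and 0.612, each above the Pvalb and glutamatergic levels of the same region. Elfn1 was at 0.887 in Sst cells (19 UMIs), and 13 of these UMIs were in region 1. Pvalb cells held 1 UMI of Elfn1, which gives a ratio of 21.0 with an interval of 3.35 to 875, and in region 4 the Sst level did not exceed the Pvalb level.

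**Figure D1:**
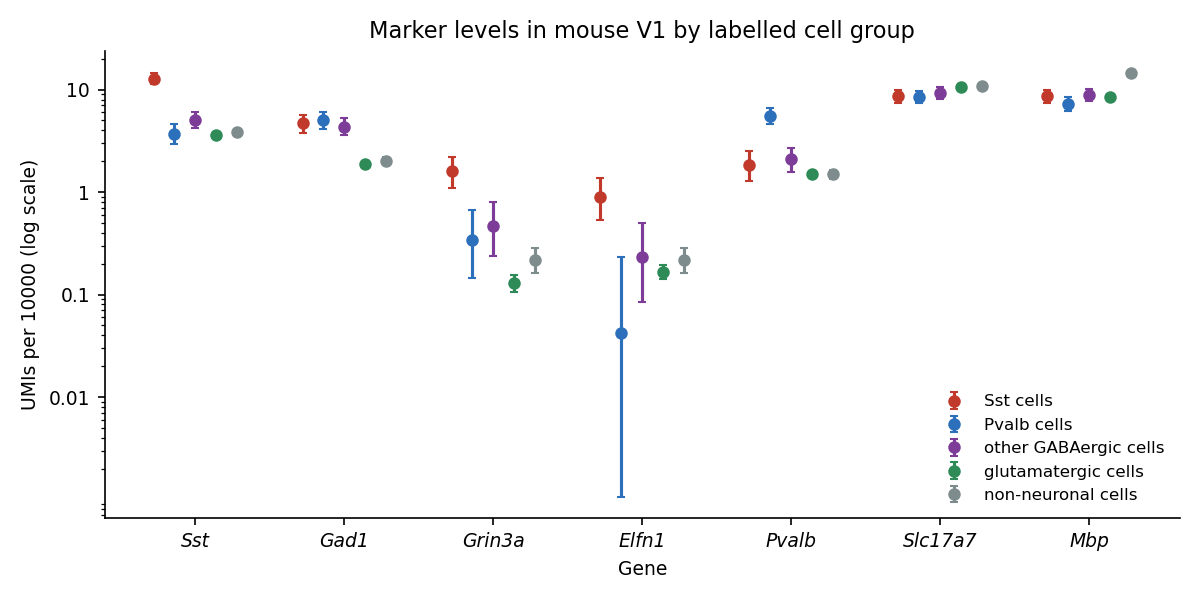
Level of 7 marker genes (UMIs per 10000, log scale) in 5 labeled cell groups of mouse V1, with exact Poisson 95% intervals as bars. Sst, Grin3a and Elfn1 were highest in the Sst cells. Slc17a7 was somewhat lower in Sst cells (8.64) than in glutamatergic cells (10.5), while Mbp (8.64 and 8.44) differed little between them.

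RNA of other cell types was present in the Sst cells at levels near those of the surrounding tissue. Slc17a7, the vesicular glutamate transporter of cortical excitatory neurons, had a level of 8.64 in Sst cells (185 UMIs) and 10.5 in glutamatergic cells, a ratio of 0.823 (0.708 to 0.952). Its level by region was 8.41, 8.11, 8.07 and 9.99 in Sst cells and 10.6, 9.48, 10.5 and 11.1 in glutamatergic cells, lower in Sst cells within each region. All 15 glutamatergic markers were detected in Sst cells, and their summed level was 55.4 against 68.4 in glutamatergic cells and 52.2 in Pvalb cells. In non-neuronal cells it was 65.6, and a Slc17a7 UMI was found in 63.7% of them against 65.1% of glutamatergic cells. The glutamatergic label thus set these markers little apart from non-neuronal cells. The summed level of these markers by region ranged from 53.9 to 58.3 in Sst cells and from 65.1 to 71.4 in glutamatergic cells. The 8 oligodendrocyte markers, such as the myelin gene Mbp, summed to 25.03 in Sst cells and 24.4 in glutamatergic cells, and the 8 astrocyte markers to 13.96 and 18.1, with Gfap at 0 UMIs in Sst cells. The 10 microglial and endothelial markers summed to 7.85 and 7.12. The part of this RNA in the results below was not tested.

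Within single cells, Sst UMIs were sparse. At least 1 Sst UMI was found in 88 of 144 Sst cells (61.1%), the other 56 had 0, 20 had 5 or more, and the highest count was 13. In glutamatergic cells, which should lack the gene, 29.2% had an Sst UMI, at a median depth of 1325 UMIs against 1472.5. After each cell was thinned to 300 UMIs, which left out 0 Sst and 72 glutamatergic cells, the shares were 29.2% (21.9% to 37.3%) and 9.12% (8.41% to 9.87%). For Nxph1 a UMI was found in 34.7% of Sst cells and 5.04% of glutamatergic cells before thinning, and 17.4% and 1.17% after it. Reln was found in 23.6% and 4.16% of cells before thinning, and in 9.72% and 1.23% after it.

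Sst cells were spread over the whole height of V1 and were most frequent below the middle. Depth in µm was counted from the top edge of a region, where layer 2/3 begins, after each region was stretched to the height of the tallest, 774 µm. Their median depth was 435 µm (quartiles 243 and 533 µm), beside 425 µm for Pvalb cells and 308 µm for glutamatergic cells. Of the 144 Sst cells, 80 (55.6%, 47.1% to 63.8%) lay in the lower part of the region, split at 0.5 of its height, against 56.7% of Pvalb cells and 40.1% of glutamatergic cells. The Sst and Pvalb shares did not differ beyond their intervals, and both intervals lay above the glutamatergic share. Where the split was set at the median depth of all V1 cells, 65.3% of Sst cells were in the lower part.

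The 4 regions were not alike. The median depth of Sst cells was 475, 357, 340 and 400 µm in regions 1 to 4, and the lower part held 36 of 55, 12 of 27, 15 of 32 and 17 of 30 cells. Leaving out region 1 brought the share in the lower part to 49.4%. In 5 equal bands, counted from the top, Sst cells numbered 17, 26, 36, 46 and 19, which was 0.919%, 1.17%, 2.23%, 2.90% and 1.03% of all V1 cells of each band. The interval of band 4 (2.13% to 3.85%) lay above those of bands 1, 2 and 5, and overlapped that of band 3 (1.56% to 3.07%). These shares too describe labeled cells and are not densities of the tissue.

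**Figure D2:**
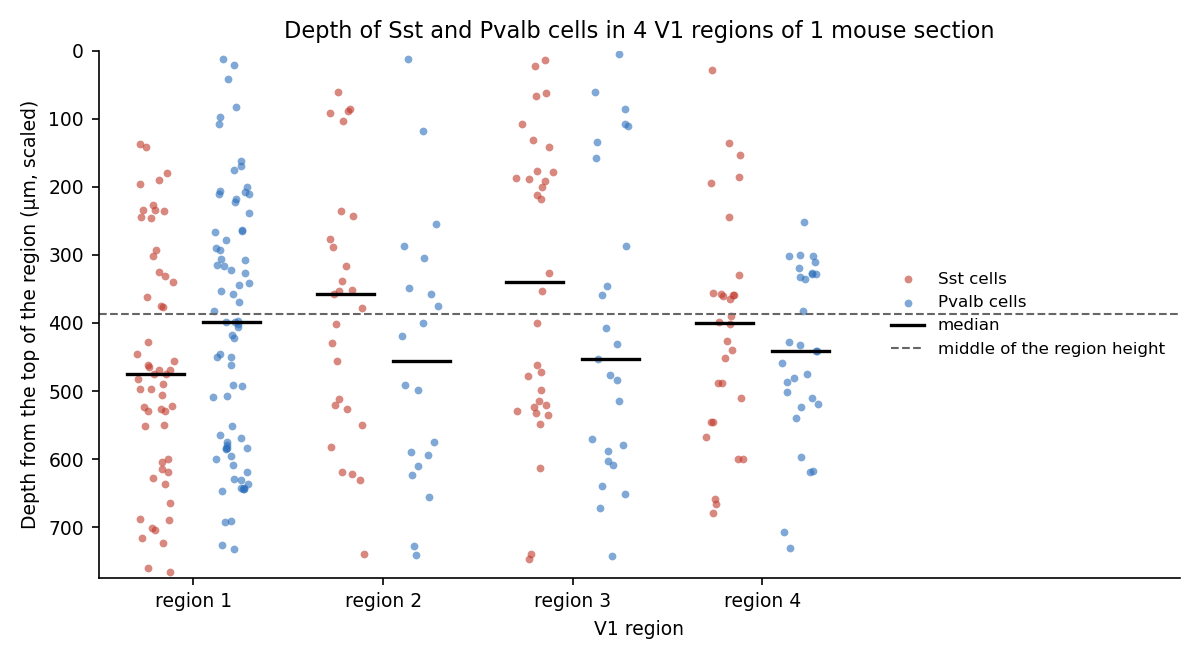
Depth (µm from the top of the region, scaled to the tallest region) of every Sst and Pvalb cell in each of the 4 V1 regions, with medians as bars and the middle of the height as a dashed line. Sst medians lay at 475, 357, 340 and 400 µm, and those of Pvalb cells at 398, 455, 453 and 441 µm.

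The comparison with Pvalb cells describes how levels differed between these classes of interneuron that share a developmental origin. Both groups were labeled by their expression, so differences in genes that shaped the labels, markers among them, were partly set by the labeling. Sst cells had higher levels of the extracellular matrix glycoprotein gene Reln, the glutamate receptor gene Grin3a, the opioid peptide gene Pdyn and the calcium channel subunit gene Cacna2d3, and lower levels of Erbb4, the receptor of neuregulins, and Btbd11. Among 5211 genes with at least 20 UMIs over both groups, 310 were at least 2-fold higher in Sst cells (5.95%) and 305 at least 2-fold lower (5.85%), around a median ratio of 1.01. Of these, 131 and 141 lay on the same side in all 4 regions, beside 343 and 367 of all 5211 tested genes. The interval of the ratio excluded 1 for 208 and 196 of the calls. Many calls rested on few UMIs, and with a minimum of 50 UMIs 37 genes were called higher and 31 lower. Without region 1, which held the most Sst cells, 239 of 3216 tested genes were called higher and 195 lower, and 90 and 64 of these were among the 310 and 305.

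Reln had the highest ratio among genes on the same side in all regions. It had 55 UMIs in 34 Sst cells, with levels of 3.10, 1.89, 1.77 and 3.06 in regions 1 to 4, and 6 UMIs in Pvalb cells, with 0.264, 0, 0.218 and 0.426. The groups did not overlap, and the ratio was 10.2 (4.38 to 28.9). Genes ranked here and below had to lie on the same side in all 4 regions, which favors such separation. How many of all tested genes were separated in this way is not given here. Pdyn, which encodes prodynorphin, was at 0.906, 2.97, 1.77 and 2.86 in Sst cells and at 0.352, 0.325, 0 and 0.853 in Pvalb cells, a ratio of 5.05 (2.42 to 11.8). The Pdyn level of Sst cells in region 1 was close to that of Pvalb cells in region 4.

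Cacna2d3, an auxiliary subunit of calcium channels, had 72 UMIs in 29 Sst cells and 16 UMIs in Pvalb cells. Its level was 3.49, 7.03, 1.38 and 2.45 in the regions of Sst cells and 0.616, 0.974, 0.218 and 1.07 in those of Pvalb cells, with a ratio of 4.99 (2.87 to 9.18). A single Sst cell held 13 of the 72 UMIs. Others among the 10 highest were Olfm3 (ratio 8.49), the collagen gene Col19a1 (5.32), Insig1 and Tmem110 (4.99 each), the semaphorin gene Sema6d (4.75) and Grin3a (4.71), each with 8 or fewer UMIs in Pvalb cells.

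Erbb4 marked the other side. It had 556 UMIs in Pvalb cells and 40 in Sst cells, at levels of 31.1, 16.6, 16.6 and 16.2 against 1.55, 1.08, 3.15 and 1.63. The regions of the groups did not overlap, and the ratio was 0.0797 (0.0563 to 0.110). The Erbb4 level of Sst cells, 1.87, was still above the 1.05 of glutamatergic cells. Btbd11 had 2 UMIs in Sst cells and 63 in Pvalb cells (ratio 0.0352, 0.00417 to 0.132). The other 8 lowest were Phospho2, Avpi1, Kazn, the nuclear receptor gene Esrrg, the DNA repair gene Ercc5, Gm1604a, Sra1 and Shisa5, with ratios from 0.0963 to 0.222 and 9 or fewer UMIs each in Sst cells.

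**Figure D3:**
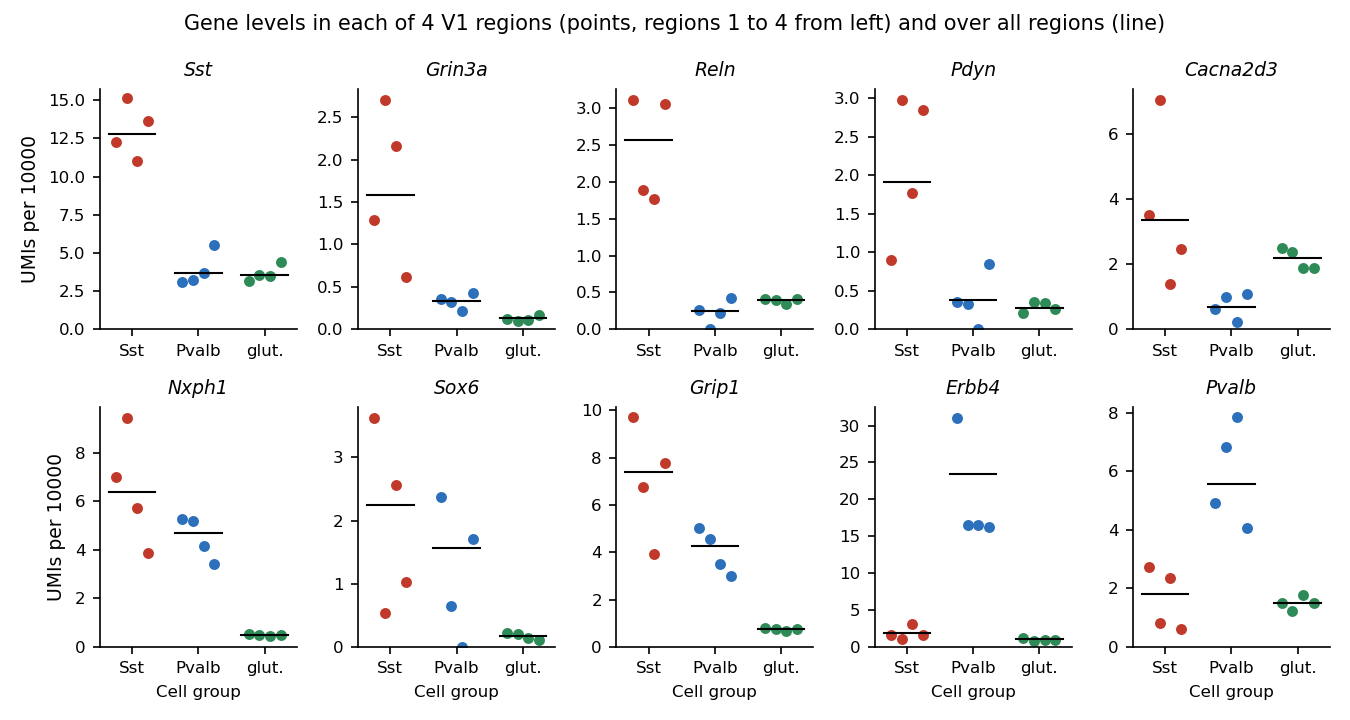
Levels of 10 genes (UMIs per 10000) in Sst, Pvalb and glutamatergic cells, with 1 point for each V1 region and a line at the level over all regions. Sst and Reln were higher in each region of Sst cells than in any region of Pvalb cells, Erbb4 was lower in each, and Nxph1, Sox6 and Grip1 overlapped between Sst and Pvalb cells while lying above glutamatergic cells.

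Listed gene groups are described by counts, beside the 5.95% and 5.85% of all tested genes that were called higher and lower. Sst, Gad1, Grin3a and Elfn1, the genes of the label check, belong to some of these groups, here and against glutamatergic cells. Their calls repeat that check. Of the 11 tested Pvalb markers, 5 were lower in Sst cells and 0 higher, with a median ratio of 0.715. The 5 were Erbb4, Pvalb itself (ratio 0.327), the synaptotagmin gene Syt2 (0.317), the potassium channel subunit gene Kcnab3 (0.462) and the hyaluronidase gene Cemip (0.180). Of the 14 tested genes for glutamate and acetylcholine receptors and Elfn1, 4 were higher, among them Elfn1, Grin3a and the kainate receptor gene Grik1 (2.01), and 0 lower, with a median of 1.45. AMPA receptor genes differed less, with ratios of 1.32 for Gria1, 1.18 for Gria2, 1.32 for Gria3 and 0.701 for Gria4.

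Among 7 tested Sst subtype genes, Reln and Pdyn were called higher and all 7 had ratios over 1. Npy, which encodes neuropeptide Y, was at 2.05 in Sst cells and 1.31 in Pvalb cells (ratio 1.57, 0.971 to 2.58), and Calb1, a calcium-binding protein gene, at 2.01 and 1.10 (1.83, 1.10 to 3.11). The remaining subtype genes were too sparse. Chodl, Hpse, Myh8, Chrna2, Tacr1 and Nmbr had 0 UMIs in Sst cells, which allows a level of up to 0.140 by a floor of 3 UMIs. Chodl, the marker of long-range projecting Sst cells, also had 0 UMIs in Pvalb cells and 8 in glutamatergic cells.

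GABA synthesis and transport genes were at similar levels in both interneuron groups. Of 8 tested GABAergic identity genes, only Synpr, a synaptic vesicle gene, was called higher (3.55 against 1.18, ratio 3.01) and only the antisense RNA gene Dlx6os1 lower (ratio 0.267). Gad1 (0.931), Gad2 (1.29) and the vesicular GABA transporter gene Slc32a1 (1.11) had intervals that included 1. Of 7 tested genes of the medial ganglionic eminence lineage, Elfn1 was called higher and the transcription factor gene Maf lower (0.355), while Sox6 (1.44) and Satb1 (1.06) had intervals that included 1.

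Genes for making and releasing peptides did not rank with Sst. Of 13 tested, Sst was called higher and Pam, the peptide-amidating enzyme gene, lower (0.472, 0.276 to 0.782), with a median ratio of 0.915. Levels of the granin gene Chgb were 9.43 and 6.998, and those of the carboxypeptidase gene Cpe 9.76 and 10.7. The 5 somatostatin receptor genes together had 6 UMIs in Sst cells and 10 in Pvalb cells, and none reached the minimum. Of 14 tested ion channel genes, Cacna2d3, Kcnc4 (2.35, 0.963 to 6.30) and Cacna1b (2.08) were called higher and 0 lower, and Kcnd2, a gene of A-type potassium current, had 132 UMIs in Sst cells against 85 (1.72, 1.30 to 2.29), with 17 of the 132 in 1 cell.

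None of the tested markers of glutamatergic cells (14), oligodendrocytes (7), astrocytes (5) or microglia and endothelium (3) was called in either direction between Sst and Pvalb cells. Of 5 tested markers of Vip, Lamp5 and related interneurons, Cnr1 was called higher (2.68, 1.33 to 5.76). The 8 tested activity-regulated genes had 0 calls and a median ratio of 1.07.

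The comparison with glutamatergic cells describes how these interneurons differed from segmented cells of the same tissue that carried the glutamatergic class label. These groups were labeled by expression too, so the same limit holds. Sst cells had higher levels of the neurexin ligand gene Nxph1, the transcription factor gene Sox6, the receptor scaffold gene Grip1 and the receptor genes Grin3a and Grik1, and lower levels of Nrg1, Hs3st4 and Khdrbs2. Among 2899 genes with at least 20 UMIs found or expected in Sst cells, 83 were at least 2-fold higher (2.86%) and 44 at least 2-fold lower (1.52%), with a median ratio of 1.01. With this minimum and so many glutamatergic UMIs, a 2-fold call nearly always has an interval that excludes 1. All 83 and 44 did, which adds no support to the calls. On the same side in all 4 regions lay 57 of the 83 and 34 of the 44, beside 237 and 288 of all 2899 tested genes.

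Nxph1 led the ranking. It had 137 UMIs in 50 Sst cells, at levels of 6.99, 9.46, 5.71 and 3.87 by region, against 0.543, 0.468, 0.441 and 0.490 in glutamatergic cells. The ratio was 12.9 (10.6 to 15.7), and 17 of the UMIs came from 1 cell. Sox6, a factor that the lineage of the medial ganglionic eminence needs, was at 3.62, 0.541, 2.56 and 1.02 in the regions of Sst cells and at 0.114 to 0.217 in those of glutamatergic cells, with a ratio of 12.8 (9.09 to 17.9). Its 48 UMIs were in 16 of the 144 cells. Grip1, which binds AMPA receptors, had 158 UMIs in 45 cells and levels of 9.70, 6.76, 3.94 and 7.75 against 0.656 to 0.805, a ratio of 9.86 (8.23 to 11.7).

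These 3 genes were high in Pvalb cells too, where Nxph1 was at 4.68, Sox6 at 1.56 and Grip1 at 4.26. Against Pvalb cells, their ratios were 1.37 (1.06 to 1.77), 1.44 (0.917 to 2.27) and 1.73 (1.34 to 2.25). Grin3a (12.4), Col19a1 (7.69), Pdyn (6.84), Reln (6.45) and the GABA-B receptor auxiliary gene Kctd8 (6.02) were instead high against both groups. Grik1 had a level of 2.29 in Sst cells, 1.14 in Pvalb cells and 0.356 in glutamatergic cells, with regions of Sst cells from 1.81 to 2.86 and of glutamatergic cells from 0.282 to 0.408. The tenth was the transcription factor gene Npas3, with a ratio of 5.79.

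The 10 lowest were sparse in Sst cells. Nrg1, a neuregulin gene, had the most UMIs of them, 39, at levels of 2.46, 1.35, 0.984 and 2.04 by region against 5.80, 5.11, 3.95 and 3.53 in glutamatergic cells, and the groups did not overlap. The ratio was 0.382 (0.271 to 0.524). Hs3st4, a sulfotransferase gene of deep-layer neurons, was at 0.934 against 2.39 (0.391, 0.238 to 0.606). Khdrbs2, an RNA-binding protein gene, had 5 UMIs in Sst cells (0.196, 0.0636 to 0.460), and the other 7, Atf6, Fam19a1, Sorcs3, Egfem1, Midn, Dact3 and Ext1, had ratios from 0.245 to 0.364.

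**Figure D4:**
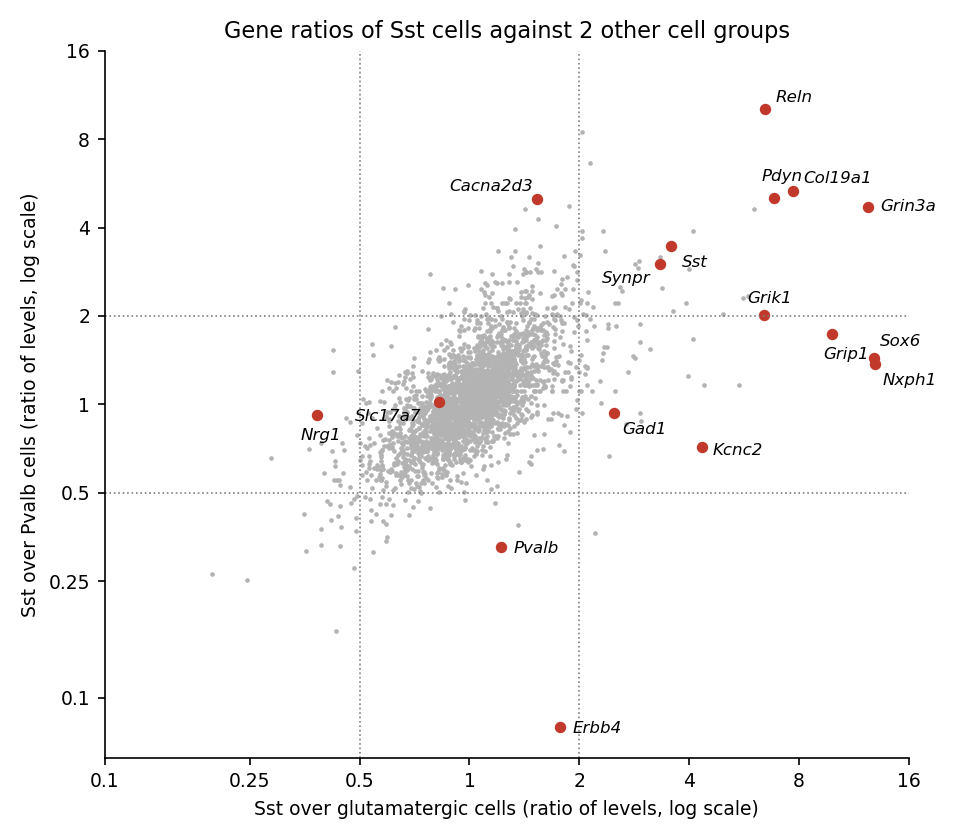
Ratio of levels in Sst over glutamatergic cells (x axis) and in Sst over Pvalb cells (y axis), both on log scales, for genes that passed the UMI minimum in both comparisons, with dotted lines at 2-fold. The axes share the Sst cells. Reln, Pdyn, Col19a1 and Grin3a lay past 2-fold on both axes, Nxph1, Sox6, Grip1 and Kcnc2 only against glutamatergic cells, and Erbb4 (0.0797) at the bottom.

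Of 5 tested GABAergic identity genes, 4 were called higher in Sst than in glutamatergic cells, beside 2.86% of all tested genes. They were Gad1 (2.48, 2.01 to 3.04), Gad2 (2.72), Slc32a1 (2.17) and Synpr (3.32). In the lineage list, Sox6 and the potassium channel gene Kcnc2 (4.67 against 1.08, ratio 4.33) were called higher among 4 tested. Among 6 tested subtype genes, Npy (2.38), Pdyn and Reln were called higher.

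Markers of the other cell types showed few calls. Of 14 tested glutamatergic markers, 13 had ratios under 1 and Itpka, an inositol kinase gene, was called lower (10 UMIs in Sst cells, interval of the ratio 0.191 to 0.739), with a median of 0.785. Of the 4 tested oligodendrocyte, 4 astrocyte and 2 microglial or endothelial markers, 0 were called, and Slc1a2, the astrocytic glutamate transporter gene, had a ratio of 0.712. The 5 tested activity-regulated genes had 0 calls and ratios all under 1, with a median of 0.721. Fos was at 2.29 in Sst cells and 3.74 in glutamatergic cells (0.612, 0.452 to 0.811), and Nr4a1 at 5.70 and 7.90.

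The genes called against glutamatergic cells were long. By GENCODE coordinates on GRCm39, 65.1% of the 83 higher genes and 59.1% of the 44 lower genes spanned over 100 kb, against 27.4% of the 2897 tested genes with a position. Their median spans were 222 and 181 kb, beside 37.7 kb for all tested genes. Nxph1 lies on chromosome 6 (8948431 to 9249616, plus strand), Sox6 on chromosome 7 (115070106 to 115638860, minus strand) and Grip1 on chromosome 10 (119289735 to 119923171, plus strand). Sst itself is short, on chromosome 16 (23707321 to 23711733, minus strand), with no overlapping gene among the measured features. Against Pvalb cells the contrast in span was smaller, with 31.0% of higher and 32.1% of lower genes over 100 kb beside 23.8% of those tested. Several of these long genes overlap other annotated genes on either strand, so some of their UMIs may belong to those.

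Upper and lower Sst cells were compared to ask whether expression differed with depth. The 64 upper cells had higher levels of Nxph1 and Thsd7a, and the 80 lower cells higher levels of Kcnc2, Grik1 and Ndst1, while Sst itself was at 12.5 and 13.0 (ratio 0.968, 0.753 to 1.24). Among 2598 genes with at least 20 UMIs in Sst cells, 164 were at least 2-fold higher in upper cells (6.31%) and 237 in lower cells (9.12%). Of these, 63 and 124 lay on the same side in all 4 regions, beside 143 and 217 of all 2598 tested genes. The interval of the ratio excluded 1 for 117 of the 164 and 136 of the 237. The calls were far fewer at higher counts, with 11 and 22 genes at a minimum of 50 UMIs. Without region 1 they were 101 and 148 of 1542 tested genes, of which 37 and 69 were among the 164 and 237.

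Thsd7a, a thrombospondin-domain gene, was at 4.72 in upper and 0.629 in lower Sst cells, 41 and 8 UMIs (ratio 7.51, 3.47 to 18.5). It was also higher in upper than in lower glutamatergic cells (2.15) and Pvalb cells (10 and 4 UMIs). The other 4 highest, Myo18a, Ppib, Clec16a and Clasrp, had 3 to 5 UMIs in lower cells and ratios from 5.57 to 8.79, and in glutamatergic cells their ratios were 0.931 to 1.22. The 5 lowest, Usf2, Ndst1, Rnf7, Psmc1 and Ttll5, had 1 or 2 UMIs in upper cells and 19 to 27 in lower cells. Ndst1, a heparan sulfate enzyme gene, had a ratio of 0.108 (0.0125 to 0.432) in Sst cells and 0.563 in glutamatergic cells.

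Some genes of the fixed lists also differed by depth. Nxph1 was at 9.67 in upper and 4.17 in lower Sst cells, higher in the upper part of all 4 regions (2.32, 1.63 to 3.34), and at a ratio of 0.963 in glutamatergic cells. Kcnc2 was at 2.65 and 6.05, lower in the upper part of all 4 regions (0.438, 0.262 to 0.705), with 0.867 in Pvalb cells and 1.33 in glutamatergic cells. Grik1 was at 1.04 and 3.14 (0.330, 0.141 to 0.690), against 1.79 in glutamatergic cells. Of the 13 tested genes of the glutamate and acetylcholine receptor list, Grm7 (2.60) was called higher and Grik1 lower, and of the 13 tested channel genes Kcnc2 and Cacna1b (0.446, 0.162 to 1.07) were called lower. Sox6 was called higher in upper cells (2.05, 1.11 to 3.84), but 17 of its 48 UMIs were in 8 upper cells of the type Sst_A. Without these 8 cells the ratio was 0.961 (0.416 to 2.10) for Sox6, 1.72 (1.15 to 2.56) for Nxph1 and 1.26 for Grm7, all below 2-fold, and 5.90 (2.61 to 15.03) for Thsd7a. Of 8 tested Pvalb markers, Kcnc2, Erbb4 (0.488) and Il1rapl2 (0.220) were called lower, and of 11 tested peptide genes Pam was (0.308), while the 5 tested GABAergic identity genes and the 6 tested subtype genes had 0 calls.

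Of the laminar genes of excitatory neurons, 1 of 4 tested upper-layer genes was called higher in upper Sst cells and 1 of 5 tested deep-layer genes lower, and the other 7 were not called. Cux2, the upper-layer gene, had a ratio of 2.12 (0.837 to 5.61) in Sst cells and 4.88 in glutamatergic cells, and Rprm, the deep-layer gene, 0.293 (0.110 to 0.669) and 0.215. Their part in the depth differences of Sst cells was not tested. Of the 164 genes called higher in upper Sst cells, 106 had ratios over 1 in glutamatergic cells and 10 were past 2-fold there, while of the 237 called higher in lower cells 152 had ratios under 1 and 9 were past 2-fold. Over all 2598 tested genes, 1125 had ratios over 1 in glutamatergic cells and 36 were past 2-fold in either direction.

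The label round and the type labels divided the Sst cells further. The 27 cells labeled in round 1, which asked for the most agreement, had an Sst level of 16.9 (13.4 to 21.0), against 11.8 (9.91 to 13.9) in round 2 and 11.1 (8.26 to 14.7) in round 3. Their Nxph1 level was 14.4 against 4.39 and 3.12, their Grip1 level 16.3 against 4.47 and 5.57, and their Slc17a7 level 6.39 against 9.03 and 10.0. They also had more UMIs, with a median of 1797 per cell against 1394 and 1353.5. The round was set by a cell's own expression, so these levels are a description. The 24 cells with the Sst label and glutamatergic class had an Sst level of 7.91 (4.90 to 12.1), Gad1 at 5.27 and Slc17a7 at 10.5.

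Type labels of the atlas were given to few members. Of the 144 cells, 41 had an Sst type: 8 were Sst_A, 19 Sst_B, 3 Sst_C, 3 Sst_D and 8 Sst_E. Another 86 had no type, and 17 carried a type of another subclass, such as L4_B (5 cells) or Micro (5 cells). All 8 Sst_A cells lay in the upper part (177 to 340 µm, median 220 µm), 13 of the 19 Sst_B cells in the lower part (median 472 µm), and 6 of the 8 Sst_E cells too (median 507 µm). Sst_A cells had Nxph1 at 22.7 (15.5 to 32.1) and Sox6 at 12.1 (7.03 to 19.3), while in Sst_B cells these were 7.21 (4.403 to 11.1) and 4.32 (2.23 to 7.55). The 3 Sst_C cells had 22 Sst UMIs, a level of 49.7 (31.1 to 75.2), and 19 Grip1 UMIs. Types were assigned from expression, so their levels were not independent of the label.

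Most Sst UMIs of V1 cells lay outside the labeled Sst cells. Of 4911 Sst UMIs in V1 cells, the Sst cells held 274 (5.58%), although they held 1.71% of all UMIs, and glutamatergic cells held 63.5%. The level of Sst in cells without the Sst label was lower the farther the cell lay from the nearest labeled Sst cell, measured between centers. It was 6.93 (6.05 to 7.90, 268 cells) under 15 µm, 5.21 (4.83 to 5.61) from 15 to 30 µm, 3.99 (3.80 to 4.20) from 30 to 60 µm and 3.17 (3.04 to 3.31) past 60 µm, and these intervals did not overlap. The nearest level was 2.19 times the farthest.

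The same order held in glutamatergic cells alone, here without those that carried the Sst label, with Sst at 6.24, 5.11, 3.85 and 2.99. By region, glutamatergic levels under 15 µm were 6.14, 6.02, 4.84 and 8.01, and past 60 µm 2.82, 2.86, 3.06 and 3.34, so that each region held the difference. In region 3 the level from 15 to 30 µm, 5.04, was slightly above that under 15 µm. Gad1, Nxph1 and Slc17a7 did not have this order. In glutamatergic cells Gad1 was at 1.44, 1.76, 2.12 and 1.78 in the 4 bins, Nxph1 at 0.449, 0.578, 0.450 and 0.506, and Slc17a7 at 10.2, 10.1, 10.7 and 10.5. Grin3a was at 0.224, 0.150, 0.138 and 0.103, with 5 UMIs in the nearest bin, and Pvalb at 1.66, 1.66, 1.56 and 1.42, both in descending order but with overlapping intervals in the nearest and farthest bins. Grip1 was at 1.03, 0.856, 0.639 and 0.744 and Reln at 0.449, 0.417, 0.379 and 0.397, also with overlapping intervals in those bins.

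**Figure D5:**
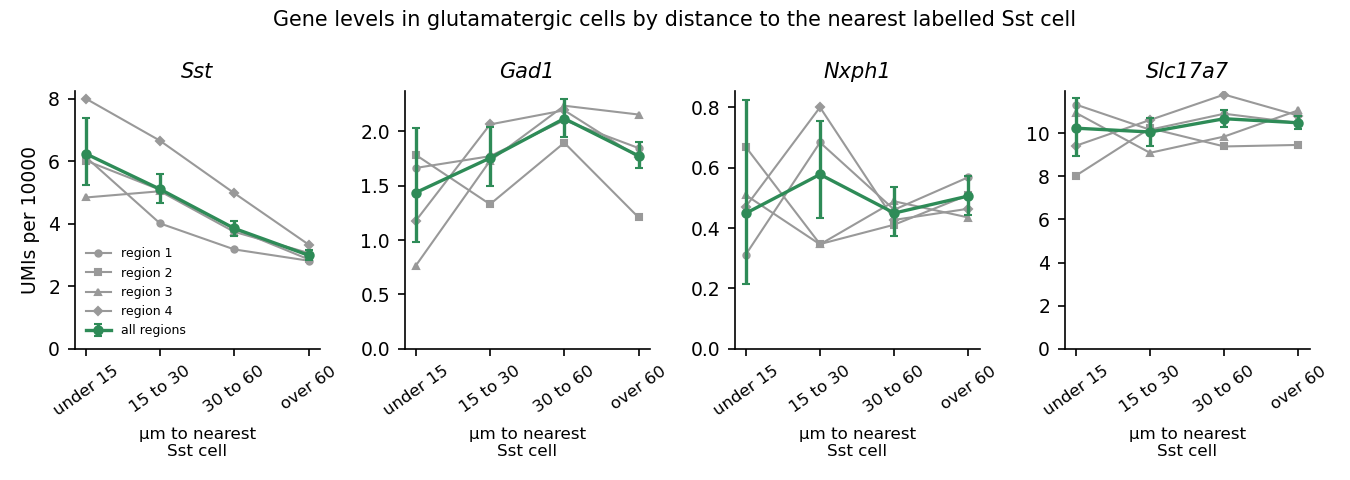
Level (UMIs per 10000) of 4 genes in glutamatergic cells without the Sst label by distance to the nearest labeled Sst cell. Grey lines show the 4 regions and green points with exact Poisson 95% intervals all regions. Sst was at 6.24 in the nearest bin and 2.99 in the farthest, while Gad1, Nxph1 and Slc17a7 had no such order.

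A set of 2105 glutamatergic cells within 50 µm of an Sst cell was added as a comparator once the data were known. Against it, the ratio of Sst was 2.80 (2.45 to 3.19) in place of 3.57 (3.15 to 4.04). The ratios of Nxph1 (14.3), Sox6 (13.4), Grip1 (10.2), Grin3a (11.3) and Reln (6.15) differed little from those against all glutamatergic cells.

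The RNAs with the most UMIs in Sst cells were at similar levels in Pvalb cells. Rn18s-rs5, a ribosomal RNA gene, had 8208 UMIs, the mitochondrial ribosomal RNA mt-Rnr2 910, Cmss1 869, the mitochondrial tRNA synthetase gene Lars2 681 and the long noncoding RNA Meg3 664. Their ratios against Pvalb cells were 0.942, 0.950, 0.986, 0.973 and 1.02. Cmss1 overlaps Filip1l on the opposite strand, so its UMIs are uncertain.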

How the data were processed

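The authors processed the Stereo-seq reads of 1 mouse section with the Stereo-seq Analysis Workflow, aligned them to GRCm39 and deposited raw UMI counts per gene and segmented cell, with V1 region, class, subclass and type labels given by nearest neighbors in an snRNA-seq atlas. Cells that passed the authors' filter (at least 50 genes and 100 UMIs) held at least 78 genes and 104 UMIs. A segmented cell can hold RNA of its neighbors, and no doublet caller was run. Mouse and opossum barcodes shared 0 cells.

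Counts were summed over cells of a group (Python 3.11.15, scipy 1.17.1). Levels have exact Poisson, shares exact Clopper-Pearson and ratios exact conditional binomial 95% intervals. These cover counting error only. Genes were called at 2-fold, with at least 20 UMIs. Named genes were listed genes with at least 20 UMIs, the 10 highest and 10 lowest ratios (5 and 5 by depth) on the same side in 4 regions, and the 5 genes with the most UMIs. Other genes of the text were chosen after their values were seen. The calculations were run on simulated counts with known folds and counting error only. Unchanged genes were called in either direction in 4.68% of cases for Sst over Pvalb cells, 0.496% over glutamatergic cells and 6.07% by depth. Genes with a true 2-fold change were called in 53.2%, 50% and 50.6% of cases. The members, lists and rules were chosen with earlier results of these data known. Opossum counts were not used here, and a few genes are not reported here.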

Additional observations from a re-analysis of the deposited data

How the results depend on the processing

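Of 83 ratios of named genes, recomputed as 867 values, those past 2-fold kept their direction, except in 4 cases. Much of this was set in advance. The ranked genes were chosen for the same side in all 4 regions, so leaving out a region could hardly turn them. A minimum of 200 genes and 300 UMIs per cell left the calls by depth at 164 and 237, as the shallowest Sst cell had 325 UMIs. With cells thinned to 300 UMIs, Sra1 (1.02) and Syt2 (1.02) in Sst over Pvalb cells and Ttll5 (1.25) in upper over lower cells turned, as did Sox6 by depth (0.961) without the 8 Sst_A cells, an alternative chosen after seeing the data. A ratio against 0 UMIs gave no value. Leaving out each region gave 89 to 117 Sst cells, 49.4% to 58.1% of them in the lower part, a median depth of 378 to 456 µm, and ratios over glutamatergic cells of 3.39 to 3.76 for Sst, 2.41 to 2.58 for Gad1, 10.1 to 16.3 for Grin3a, 2.41 to 6.95 for Elfn1 and 0.799 to 0.840 for Slc17a7. It gave 239 to 267 higher and 195 to 305 lower genes against Pvalb cells, 65 to 74 and 31 to 48 against glutamatergic cells, 101 to 136 and 148 to 219 by depth, and 2.04 to 2.35 for Sst near over far from Sst cells. The lowest cell number, Elfn1 ratio and counts by depth, and the 195 genes, were those without region 1, where fewer genes passed the minimum. Splitting at the median depth of all V1 cells put 65.3% of Sst cells in the lower part.

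Counts of calls followed the UMI minimum. Against Pvalb cells, 37 genes were higher and 31 lower at 50 UMIs, 747 and 834 at 10 UMIs, and 40 and 42 with thinned cells, of which 3 and 6 were among the calls of the report. Against glutamatergic cells these were 19 and 9, 252 and 217, and 14 and 7, of which 10 and 2 were shared. By depth they were 11 and 22, 614 and 694, and 11 and 19, of which 2 and 4 were shared. The share of calls that were higher against glutamatergic cells was 65.4%, and 53.7% at 10 UMIs. Other alternatives (deeper cells, rounds 1 and 2, any class, cell means, depth-matched or nearby comparators) kept each count within 1.5 times. The genes called changed more than the counts. Against glutamatergic cells, 65 of 77 higher and 28 of 55 lower calls with any class were among the calls of the report. With rounds 1 and 2 these were 62 of 86 and 21 of 35, and without region 1 they were 40 of 65 and 15 of 31. No paired analysis was possible because the groups were cells of 1 animal, with no replicate samples. Depth limits the text to genes of about 20 UMIs or more, and a level of 0 in Sst cells allows up to 0.140 by a floor of 3 UMIs.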
